A study of Glycine max with 2 samples.

Results

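Transcripts for the ribosome, for translation factors, for tRNA ligases and for pentatricopeptide repeat (PPR) proteins were examined in soybean (Glycine max) leaf. Members were the rows of the deposited tables whose description held the words ribosomal protein, translation initiation, elongation factor, tRNA ligase, tRNA synthetase or pentatricopeptide, in any case, and not the word splicing. At 50 days after sowing 19 of 2413 listed transcripts were members, and at 95 days 24 of 2471. Because 4 transcripts were in both tables, the 43 entries stood for 39 different transcripts of 29 genes. The plants were of 2 types, 1 of early and 1 of late senescence, kept in a greenhouse without a further treatment named in the labels, and leaf RNA was sequenced at both ages. Each age is a comparison by the authors of 2 libraries, called A and B in the tables. The labels and columns leave unsaid whether A or B is the early type, and whether A is the same type at both ages, so the names type A and type B are kept here. The deposit names each comparison as early against late, an order that was not used to assign A or B. The question of the series, from its title and design, is which genes differ between the types at each age.

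Cytosolic ribosomes are built of a 40S and a 60S subunit and translate messenger RNAs of nuclear genes. Initiation factors bring the small subunit to the messenger RNA, elongation factors carry charged tRNAs to the ribosome, and tRNA ligases charge each tRNA with its amino acid. Chloroplasts and mitochondria hold ribosomes of bacterial type, served by ligases that are imported into them. PPR proteins are a large plant family of mostly organellar RNA-binding proteins, which act in the editing, splicing, processing and translation of organelle transcripts.

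Each type was represented by 1 library at each age, so the differences described here were not checked by replicates, and a p-value of the authors' sets 1 library beside another without testing the types. The tables list isoforms of gene models, and only those with an unadjusted p under 0.05, about 3.87% of the transcripts the authors tested at 50 days and 4.12% at 95 days. A member missing from a table is therefore not shown to be equal in both libraries, and the total of a gene over all its isoforms is unknown. Values are normalised reads, the deposited value minus the 1 that the authors' values hold. In these units 1 read is worth 0.803 in A and 0.939 in B at 50 days, and 1.25 in A and 1.09 in B at 95 days; library totals are unknown. Folds are ratios, each with a 95% interval from the reads (exact Clopper-Pearson binomial), or, where the lower library had no read, lower bounds against 3 reads in that library, and both cover counting error only. The lower library had no read for 13 of the 19 members at 50 days (70.5% of the whole table) and for 20 of the 24 at 95 days (75.3% of the table). A transcript counts as called at an adjusted p of the authors' below 0.05 with a log2 ratio of 1 or more in size. Of the members, 13 of the 19 at 50 days and 18 of the 24 at 95 days were isoforms numbered other than 1, beside 58.4% and 59.9% of all listed transcripts. In these bulk samples fewer cells of a type and less RNA per cell cannot be told apart. Transcripts of photosystem and chlorophyll-binding proteins, used as leaf markers, summed to 5424 in A against 742 in B at 50 days (5 listed, 4 of them with more in A), and 1 was listed at 95 days, with 33.6 in A against 1061 in B. Of other markers, 3 transcripts with nodulin in their description summed to 856 in A and 690 in B at 50 days, and 1 had 386 in A alone at 95 days. A KAT1-like guard cell channel had 95.5 and 39.9 in A at 50 and 95 days and none in B, and 2 sieve element transcripts were listed at 95 days, with 1092 in B and none in A. No seed storage or oleosin transcript was listed at either age, and the part of tissue makeup in the results was not tested.

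At 50 days the 7 members counted as cytosolic or organellar translation machinery all had more reads in B. They were 3 cytosolic and 1 bacterial-type ribosomal protein, elongation factor 1-alpha, initiation factor 4G and the alpha subunit of phenylalanine-tRNA ligase, each from a different gene, while over all listed transcripts the shares were 39.2% with more reads in B and 60.8% with more in A. PPR transcripts were divided the other way, 9 of 11 having more reads in A. By gene the PPR split was 5 in A against 2 in B, since 5 of the 9 were isoforms of 1 gene. The 7 in B leave out a RimI-like acetylase, with 339 normalised reads in A against 13.1 in B. The classes as first planned would have counted it as cytosolic, and it was set apart after the descriptions were read. So was a prolyl-tRNA synthetase associated domain protein at 95 days, with 11.2 in A against 1632 in B. At 95 days the classes were divided otherwise, with 4 cytosolic members in A to 3 in B, 1 organellar member in A to 4 in B, and 7 PPR transcripts in A to 4 in B, beside 46.7% in A and 53.3% in B for all listed transcripts. Counted by gene, the PPR split at 95 days turned to 3 in A and 4 in B, and with 1 transcript per gene its median log2 ratio went from -7.10 to 7.11. Taken from the authors' deposited table, the log2 of B over A had a median of 6.56 for cytosolic and -7.33 for PPR members at 50 days, beside -5.29 for all listed transcripts, and 5.93, -6.25 and -4.77 with libraries without a read set to 3 reads. At 95 days the median was -4.93 for cytosolic, 8.02 for organellar and -7.10 for PPR members, beside 4.52 for all, and -5.10, 6.60, -5.37 and 3.84 with 3 reads set. The members' ratios lay far from 0 on either side, from 3.91 to 13.38 in size at 50 days and from 4.93 to 10.43 at 95 days, so a median here mainly shows the side that held more members. A difference of these splits between the ages was not tested, and transcripts are not replicates.

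**Figure D1:**
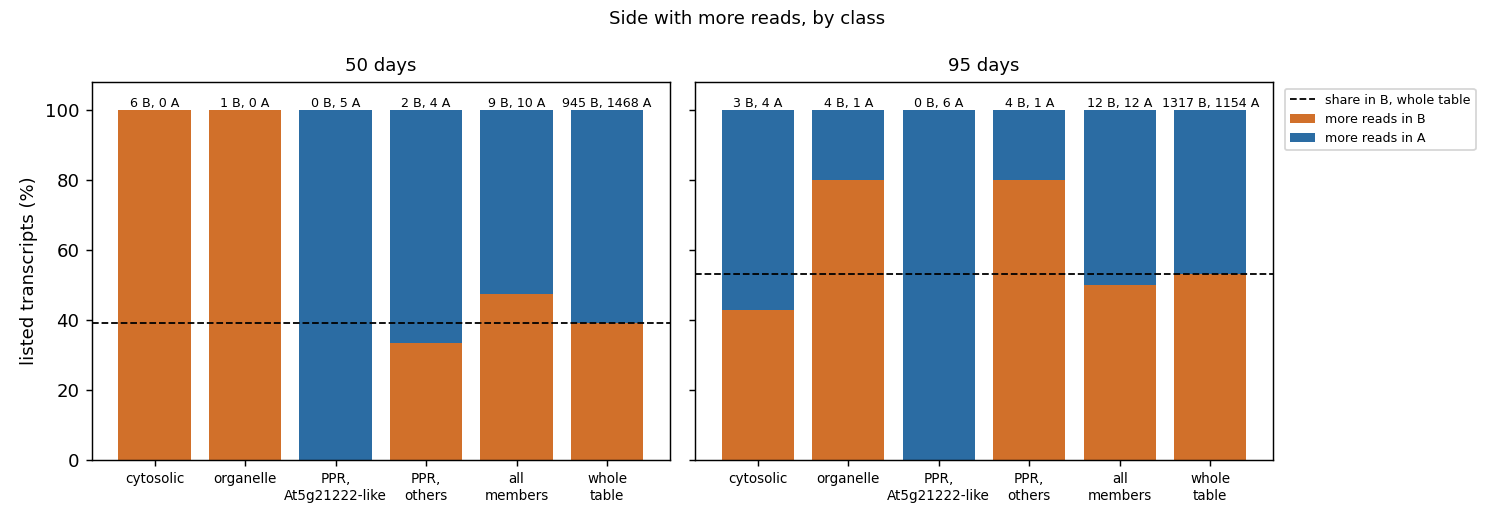
Share of listed transcripts with more reads in B (orange) and in A (blue) for each class at 50 and 95 days, with the number on each side above the bar and the share in B of the whole table as a dashed line. All 7 cytosolic and organellar transcripts lay in B at 50 days, where 39.2% of all listed transcripts did. A RimI-like acetylase in A is not among the 7, as it was set apart after the descriptions were read. The At5g21222-like PPR transcripts lay in A at both ages.

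Only 1 member was called, ribosomal protein L4 at 50 days, against 4.64% of the whole table called in either direction and 1.45% called higher in B. L4 lies along the exit tunnel of the large subunit. Its transcript Glyma.10G048600.2 had no read in A against 10631 normalised reads in B, from 11322 reads, which is at least 4415-fold higher. The authors' deposited table gave it a log2 ratio of B over A of 13.38 and an adjusted p of 0.0159. No other isoform of this gene was listed at 50 days, and none of the gene at 95 days. The next lowest adjusted p of a member at that age was 0.172 in the authors' deposited table, and 5 of the 19 had an adjusted p of 1.

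The other cytosolic ribosomal proteins at 50 days had their reads in B too, without being called. L10a, a protein of the mobile L1 stalk, was read in both libraries. Its transcript Glyma.18G026100.2 had 299 normalised reads in A against 4514 in B, 15.1-fold higher (13.6 to 16.8). S15a-1, a small-subunit protein, had none in A against 298 in B for Glyma.11G003700.2, at least 124-fold higher. The bacterial-type L9, Glyma.19G085300.3, had none in A against 285 in B, at least 119-fold. L10a was thus the 1 of these 4 with a measured ratio in place of a bound.

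Among the factors at 50 days, elongation factor 1-alpha, the GTPase that brings charged tRNAs to the cytosolic ribosome, had 82.7 normalised reads in A against 2767 in B for Glyma.19G052400.1, a 33.5-fold difference (27.5 to 41.1). Copies of this gene family are close in sequence, so its value is uncertain: no source used here gives the rule by which reads were shared among copies. That rule is unstated for every other transcript here too, the ribosomal proteins among them, and their folds carry the same limit where copies are alike. Initiation factor 4G, the scaffold that joins cap-binding and helicase factors, had none in A against 269 in B for Glyma.07G117800.2. Phenylalanine-tRNA ligase alpha, Glyma.17G231300.4, had 149 in A against 2964 in B, 19.9-fold higher (17.1 to 23.1). The 3 transcripts with more than 100 reads in each library, L10a, the ligase and elongation factor 1-alpha, had adjusted p-values of 1, 0.915 and 0.624 in the authors' deposited table.

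**Figure D2:**
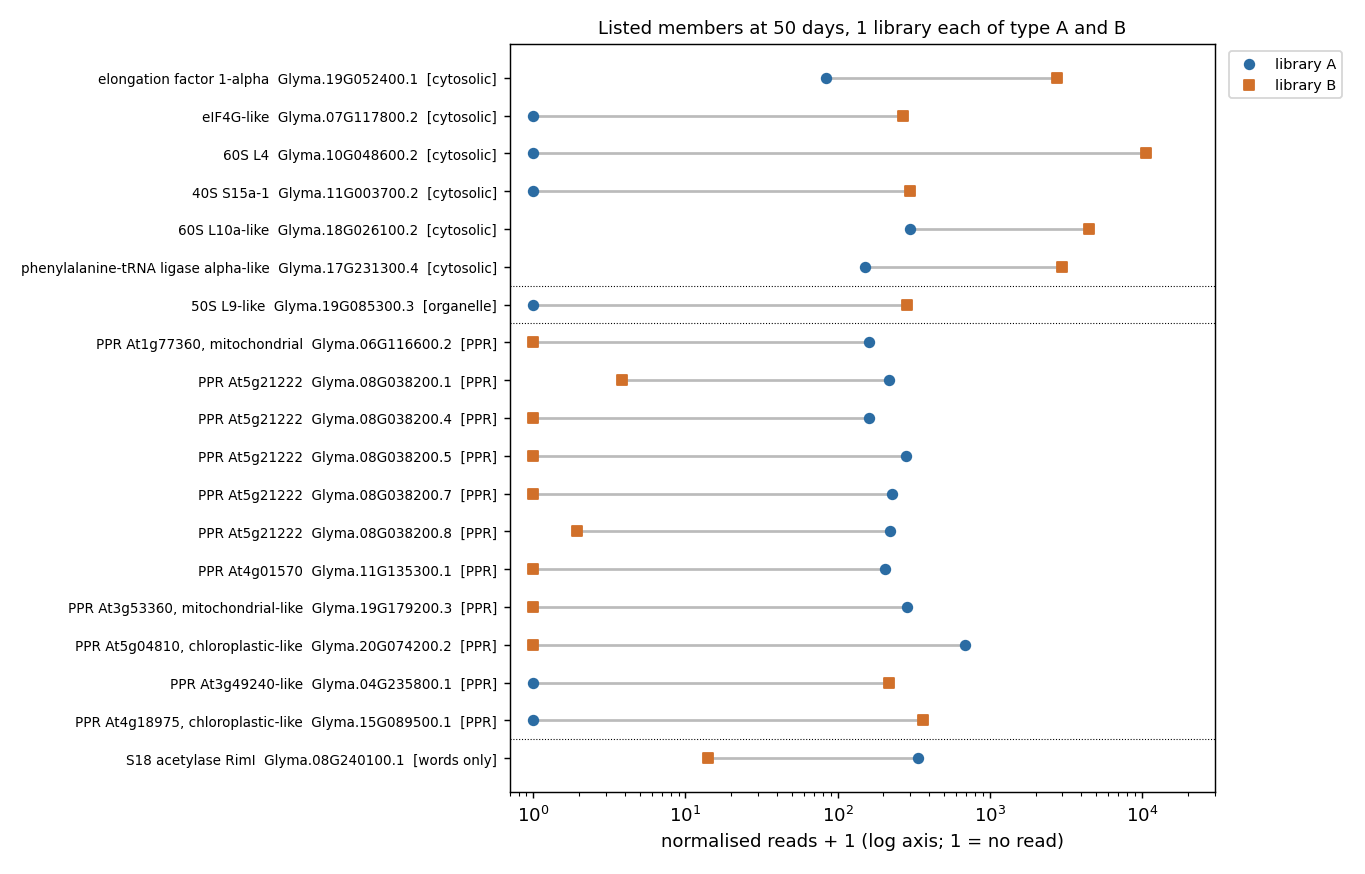
Normalised reads plus 1 on a log axis for each of the 19 members at 50 days, with library A as blue circles and library B as orange squares, and classes divided by dotted lines. The 7 transcripts of the cytosolic and organelle classes have their higher value in B; 9 of the 11 PPR transcripts have it in A.

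PPR transcripts at 50 days lay mostly in A, 9 of 11, beside 60.8% of all listed transcripts. Leaving out the At5g21222-like gene, 4 were in A and 2 in B. That was 66.7% in A, near the share of all listed transcripts. By gene the PPR members were 5 in A and 2 in B. Of all listed genes 1197 were in A, 786 in B and 102 on both sides. The gene Glyma.08G038200, matched to Arabidopsis At5g21222, gave 5 of the 9. Its isoforms had 160 (Glyma.08G038200.4), 215 (Glyma.08G038200.1), 218 (Glyma.08G038200.8), 226 (Glyma.08G038200.7) and 280 (Glyma.08G038200.5) normalised reads in A. In B the values were 0, 2.82, 0.939, 0 and 0 in that order, so each isoform had at most 3 reads there. Summed over the 5 listed isoforms the gene had 1099.6 in A against 3.76 in B, 293-fold (114 to 1076), and isoforms of 1 gene share sequence and are not separate evidence. The interval of this and of every later sum takes each read as counted for 1 isoform only, which no source used here states. If reads were counted for several isoforms, these intervals are too narrow.

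The other PPR members at 50 days were each read in a single library. On the A side, Glyma.20G074200.2 had 681 normalised reads. It matches At5g04810, the Arabidopsis counterpart of maize PPR4, which acts in trans-splicing of a chloroplast ribosomal protein transcript. Glyma.19G179200.3, described as mitochondrial At3g53360-like, had 284, Glyma.11G135300.1 (At4g01570) had 204 and Glyma.06G116600.2 (At1g77360, mitochondrial) had 159. On the B side, Glyma.15G089500.1, described as chloroplastic At4g18975-like, had 363 and Glyma.04G235800.1 (At3g49240-like) had 217. Both transcripts described as mitochondrial were in A, and the chloroplastic ones were divided, 1 and 1.

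At 95 days no member was called, against 1.5% of the whole table, and the lowest adjusted p of a member was 0.11 in the authors' deposited table. Among ribosomal proteins, L23A, which sits at the mouth of the peptide tunnel, had none in A against 321 in B for Glyma.11G143400.1, at least 85.8-fold higher. L10a was on the other side, with 118 in A with none in B for Glyma.18G026100.1, at least 36.1-fold higher in A. That is a different isoform of the gene whose Glyma.18G026100.2 had more reads in B at 50 days. Bacterial-type L9, Glyma.19G085300.3, again had no read in A, with 259 in B.

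The initiation factors at 95 days were on opposite sides. Subunit A of initiation factor 3, the core of the complex that binds the small subunit, had 1375 normalised reads in A with none in B for Glyma.03G172200.3, at least 419-fold higher in A. Its unadjusted p was 0.000342 and its adjusted p 0.114 in the authors' deposited table. Initiation factor 4G, Glyma.07G117800.2, had none in A against 307 in B, at least 82.3-fold.

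All 4 organellar and 3 cytosolic tRNA ligases listed at 95 days were single isoforms of different genes. In the organellar set, tryptophan-tRNA ligase Glyma.04G086500.5 was read in B alone, at 612 normalised reads, as was histidine-tRNA ligase Glyma.03G183400.2, at 362. Valine-tRNA ligase, Glyma.10G239500.1, described as mitochondrial, had 456 in B and 1 read in A, 366-fold (65.4 to 14502). Glycine-tRNA ligase Glyma.03G110500.2 was the exception, with 451 in A with none in B, at least 137-fold higher in A. In the cytosolic set, leucine-tRNA ligase Glyma.11G034100.1 had 263 in A against 7.66 in B, 34.3-fold (16.4 to 86.4). The subunits of phenylalanine-tRNA ligase, which work as a complex of alpha and beta chains, were divided. The beta subunit, Glyma.05G016400.2, had 203 in A with none in B, and the alpha subunit, Glyma.17G231300.2, had none in A against 179 in B.

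**Figure D3:**
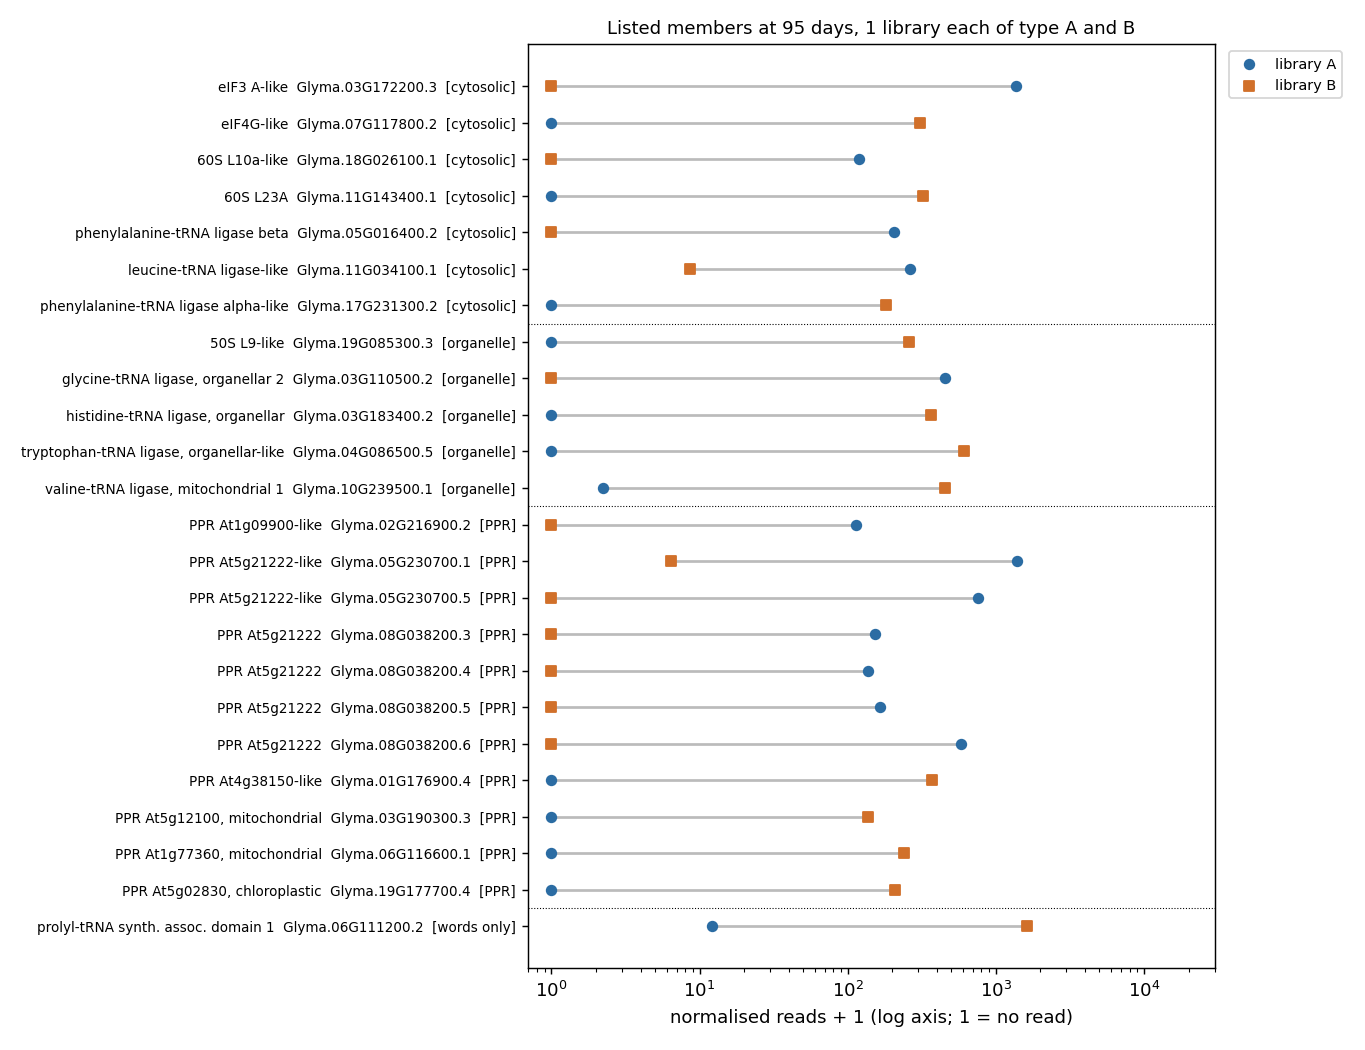
Normalised reads plus 1 on a log axis for each of the 24 members at 95 days, with library A as blue circles and library B as orange squares, and classes divided by dotted lines. For 20 of the 24 one library had no read, and 12 members lay on each side.

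The 7 PPR transcripts in A at 95 days included 6 that match At5g21222, from 2 genes. Glyma.08G038200 had 136 (Glyma.08G038200.4), 152 (Glyma.08G038200.3), 164 (Glyma.08G038200.5) and 580 (Glyma.08G038200.6) normalised reads in A with none in B, a sum of 1032 that is at least 315-fold higher. A second gene, Glyma.05G230700, had 1397 in A against 5.47 in B for Glyma.05G230700.1, and 757 in A with none in B for Glyma.05G230700.5. Its sum was 394-fold higher in A (168 to 1215). Without these 2 genes the PPR split at 95 days turned to 1 in A against 4 in B, and at 50 days it was 4 and 2.

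**Figure D4:**
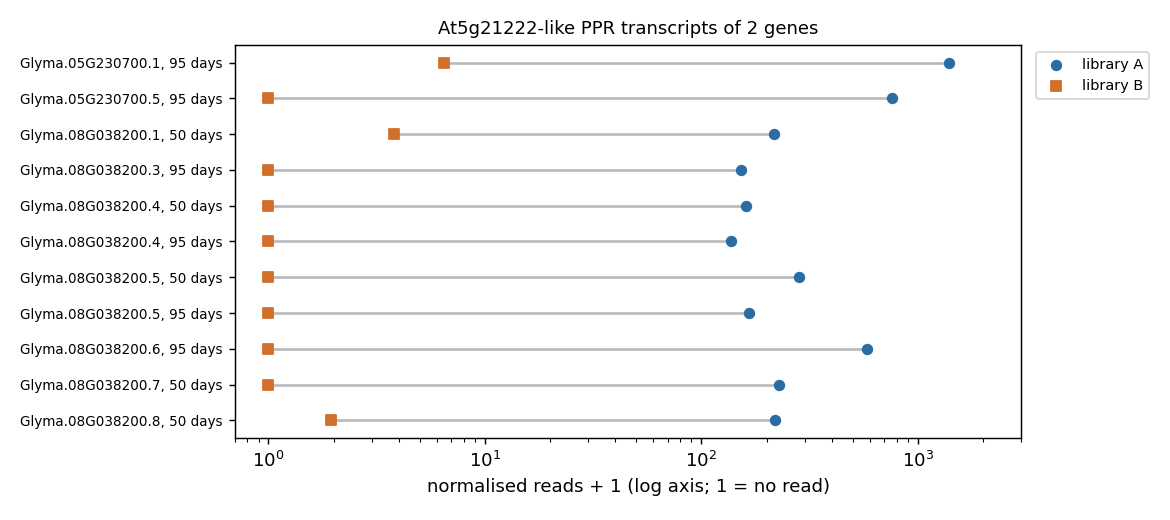
Normalised reads plus 1 on a log axis for every listed isoform of the 2 genes that match At5g21222, with its age, library A as blue circles and library B as orange squares. The isoforms had 136 to 1397 normalised reads in A and at most 5.47 in B.

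The remaining PPR members at 95 days each had reads in 1 library. In B were Glyma.01G176900.4 (At4g38150-like) with 372 normalised reads, Glyma.06G116600.1 (At1g77360, mitochondrial) with 241, Glyma.19G177700.4 (At5g02830, chloroplastic) with 207 and Glyma.03G190300.3 (At5g12100, mitochondrial) with 137. In A was Glyma.02G216900.2 (At1g09900-like), with 112. The At1g77360-like gene was listed at 50 days by another isoform, Glyma.06G116600.2, which had its reads in A.

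All 4 member transcripts listed at both ages kept their side, which 68% of the 788 transcripts of the whole tables listed at both ages also did. They were initiation factor 4G and bacterial-type L9 in B, and Glyma.08G038200.4 and Glyma.08G038200.5 in A. Initiation factor 4G had 269 and 307 normalised reads in B at 50 and 95 days, and L9 had 285 and 259. Whether the scaling makes the ages comparable is inferred from the size factors and is not stated in the sources used here. By gene, 6 were listed at both ages, and 2 of these, the L10a-like and the At1g77360-like gene, were on different sides at the 2 ages, each by different isoforms. Over all genes listed at both ages with 1 side at each, 235 of 726 (32.4%) were on different sides. Phenylalanine-tRNA ligase alpha was also listed by different isoforms at the 2 ages, both in B.

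Another 2 members were matched by their words and are not themselves ribosomal proteins, translation factors or tRNA ligases. Glyma.08G240100.1, a RimI-like acetylase named for ribosomal protein S18, had 339 normalised reads in A against 13.1 in B at 50 days, 25.8-fold (15.2 to 47.5). Glyma.06G111200.2, a prolyl-tRNA synthetase associated domain protein, annotated with aminoacyl-tRNA editing, had 11.2 in A against 1632 in B at 95 days, 146-fold (76.5 to 319). A second isoform of that gene without these words, Glyma.06G111200.1, had 659 in A with none in B. The sums of both isoforms were 670 and 1632, 2.44-fold higher in B (2.21 to 2.69).

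Some ribosomal proteins carry no such word in their description and are known in the tables only by their symbol and gene ontology term. At 50 days 4 transcripts annotated as a structural constituent of the ribosome lay outside the rule, of which 3 had their reads mostly in B. L19-2, Glyma.19G213200.1, had 214 normalised reads in A against 3751 in B, 17.5-fold (15.5 to 19.9). S24-2, Glyma.10G160300.2, had none in A against 153 in B. A mitochondrial-type L6, Glyma.20G193100.2, had none in A against 353 in B. S-A, Glyma.08G159800.2, was the 1 in A, with 409 and none in B. Together with the 4 listed ribosomal protein members this made 7 in B to 1 in A at 50 days, by transcript and by gene. Elongation factor Ts, Glyma.01G145400, annotated by the same route and of bacterial type, had 2 isoforms in B, with 985 (Glyma.01G145400.2) and 553 (Glyma.01G145400.5) and no read in A. These rows were sought after the members' values were known.

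At 95 days 10 such ribosomal transcripts of 8 genes lay outside the rule, 5 in A against 5 in B, and 1 of them was called, beside 1.5% of the whole table. This was L22-2, Glyma.19G232700.2, with 1856 normalised reads in A with none in B, at least 565-fold higher in A, and an adjusted p of 0.0449 in the authors' deposited table. Its other listed isoform, Glyma.19G232700.1, had the reverse, 1.25 in A against 707 in B. Summed, the 2 isoforms gave 1857 in A against 707 in B, 2.63-fold higher in A (2.39 to 2.89). L35a-1 was divided in the same way, with 1042 in A with none in B for Glyma.02G253500.1, and 1.25 in A against 1739 in B for Glyma.02G253500.2. Its sums were 1044 and 1739, 1.67-fold higher in B (1.53 to 1.81).

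The ratio of a single isoform was thus far from the ratio of the listed isoforms' sum for these genes. Over the whole tables, 102 of the 258 genes with several listed isoforms had them on both sides at 50 days, and 145 of 280 at 95 days. The 2 At5g21222-like genes did not, all their listed isoforms lying in A. S3a, Glyma.20G149400.2, had 1628 in A against 86.4 in B, 18.8-fold (15.0 to 23.9). L19-2 at 95 days was on the A side by another isoform, Glyma.19G213200.3, with 423 in A against 9.85 in B. In B at that age were L28 of bacterial type, Glyma.12G071700.1, with 365, a second L35a, Glyma.08G087000.2, with 117, and the L6 transcript Glyma.20G193100.2, with 365, each with no read in A. S-A, Glyma.08G159800.2, had 273 in A with none in B, on its side of 50 days.

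**Figure D5:**
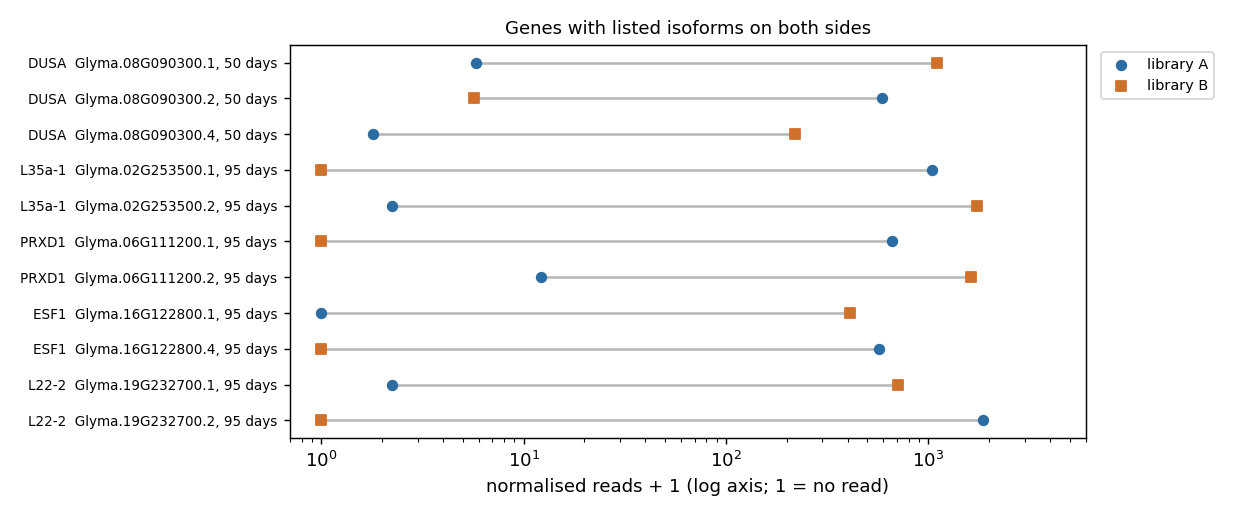
Normalised reads plus 1 on a log axis for translation-related genes with listed isoforms on both sides, library A as blue circles and library B as orange squares; DUSA is a tRNA-dihydrouridine synthase and ESF1 a pre-rRNA processing protein. In each gene 1 isoform has its reads almost wholly in A and another almost wholly in B, as for L22-2 with 1856 in A for one and 707 in B for the other.

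A list of words for ribosome assembly, tRNA modification and translation, outside the rule, found 4 transcripts in A and 8 in B at the earlier age and 11 and 11 at the later. None was called, beside 4.64% of the whole table at 50 days and 1.5% at 95 days, so few calls were to be looked for in lists this short. At the later age it also caught a glutamyl-tRNA reductase, an enzyme of tetrapyrrole synthesis, in A and a REF/SRPP-like protein in B, and 10 and 10 remained without them. At 50 days those in B included BMS1, a GTPase of 40S assembly (Glyma.12G049700.2, 291 normalised reads and none in A), and a chloroplastic GUF1-like translation factor (Glyma.04G206300.1, 637 against 5.62 in A). A mitochondrial GUF1-like factor, Glyma.09G258100.4, was in A with 112. The tRNA-dihydrouridine synthase Glyma.08G090300, which modifies tRNA bases, had isoforms on both sides, 591 in A for Glyma.08G090300.2 and 1103 in B for Glyma.08G090300.1. At 95 days peptide chain release factor subunit 1-3, Glyma.02G068500.1, which ends translation at stop codons, had 497 in A with none in B. Organellar RNA editing factor 1, Glyma.12G169200.1, which works with PPR editing proteins, had 294 in B and none in A. Glyma.11G182900.3, described as nucleolin-like but given the symbol of an Arabidopsis HNRPQ protein, had 211 in A alone at 50 days and 858 in B alone at 95 days.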

How the data were processed

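Per the labels' protocols, leaves were frozen in liquid nitrogen before RNA isolation (Genall Ribospin), and libraries were run on an Illumina NovaSeq. The submitters' processing notes name Trimmomatic 0.36 and DESeq 1.36.0. No aligner, read counter, genome build or annotation is named in the sources used here. The A and B values deposited by the authors are a signal that is never negative. After subtraction of 1, each of the 4 columns held only whole multiples (tolerance 0.01) of a step of its own, and they were taken as counts divided by a size factor, plus 1. The log2 ratios, p-values and adjusted p-values are those the authors deposited. The number of transcripts tested was estimated from the authors' p, rank and adjusted p as 62413 and 59955. One repeated row at 50 days was dropped.

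The members, classes and word lists were chosen with earlier results of these data known. PPR was taken from the description, organelle from a named organelle or 30S and 50S, and cytosolic from the rest; 2 rows were set apart as matched by words only after their descriptions were read. Named were every called member, every member at both ages and the 4 with the highest value per age, class and side; the remaining members were also named since they were few. Transcripts outside the rule were chosen after their values were seen. No test was made, as there are no replicates. Gene names come from the tables, since the soybean RefSeq table supplied held no matching locus names, and no sequence or coordinate is given. The intervals of ratios were tested on simulated counts, unchanged or changed 4-fold, with reads in both libraries. The lower bounds, and folds as large as those given here, were not tested in that way. The tools were scipy 1.17.1, pandas 2.3.3, numpy 2.4.6, matplotlib 3.10.9 and Python 3.11.15.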

Additional observations from a re-analysis of the deposited data

How the results depend on the processing

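No paired analysis was possible because each type has 1 library per age. Of 107 alternative values for splits, medians and calls, 71 were counted as the same, 26 moved and 10 turned. Shares counted as the same could still shift. For all members at 95 days the share in B was 30% at an unadjusted p under 0.01 (50% otherwise). It was 66.7% without the At5g21222-like genes. At 50 days it was 28.6% of all members at an unadjusted p under 0.01 (47.4% otherwise). Of PPR members at 50 days it was 33.3% without the At5g21222-like genes (18.2% otherwise). Part of the 71 was fixed in advance, where a setting neither removed nor added a member of the class. Leaving out the At5g21222-like genes, for example, could not change the cytosolic or organellar share. The cytosolic share in B at 50 days was 100%, or 90% with the transcripts known by gene ontology, both with the RimI-like acetylase set apart. With 1 transcript per gene, 60% of members were in B at 50 days (47.4% otherwise) and 57.1% of PPR members at 95 days (36.4% otherwise), and the medians of the log2 ratio of B over A became 4.30 for all members at 50 days (-4.59 otherwise), 7.11 for PPR at 95 days (-7.10 otherwise) and 7.30 for all members at 95 days (1.07 otherwise). Without the At5g21222-like genes, added after seeing the data, the share in B was 64.3% of members at 50 days and 80% of PPR at 95 days. With the transcripts known by gene ontology, also added, it was 57.7% of members at 50 days. At or above the table's median level, the share in B was 80% of 5 members and 0% of 1 PPR member at 50 days, and 0% of 1 cytosolic member at 95 days. With a read in both libraries it was 0% of 2 PPR members at 50 days, and 0% of 1 cytosolic, 100% of 1 organellar and 0% of 1 PPR member at 95 days. At an unadjusted p under 0.01 it was 100% of 1 organellar and 0% of 6 PPR members at 95 days. These 6 were all isoforms of the 2 At5g21222-like genes. Adding 5 in place of 1 gave medians of 5.38 (cytosolic), 5.86 (organellar) and -5.23 (PPR) at 50 days, and 6.20 (organellar) and -4.82 (PPR) at 95 days. With no read set to 3 reads they were 6.89 (organellar) and -6.25 (PPR) at 50 days, and 6.60 (organellar), -5.37 (PPR) and 0.050 (all) at 95 days. Centred on the table's median they were 11.85 (cytosolic), 13.45 (organellar), -2.04 (PPR) and 0.70 (all) at 50 days, and -9.45 (cytosolic), 3.50 (organellar), -11.62 (PPR) and -3.46 (all) at 95 days. At an adjusted p under 0.01 no member was called at 50 days. The causes were not tested, and under some settings fewer transcripts entered. Depth limits the bounds: a library with no read here allows 3.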
